A study of Homo sapiens with 8 samples.

Results

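Transcripts of 9 genes of haem synthesis were followed in the human breast cancer line KPL-1, engineered to make Cas9 on doxycycline (iCas9). The genes were taken by name: ALAS1, ALAD, UROS, UROD, CPOX, PPOX and FECH, which encode enzymes of the pathway, and TMEM14C and ABCB10, which encode proteins of the mitochondrial inner membrane. All 9 were among the 19035 gene symbols of the expression table and all 9 were among the 11885 genes tested, so none was lost to the filter on low levels. The sgSETD1A group held 3 libraries from cells with a guide against SETD1A, labelled as SETD1A knockout. The sgEmpty group held 3 libraries with the guide vector left empty, labelled as WT. Both groups carried the inducible Cas9 and were taken on day 7 of doxycycline, so enzyme and drug were shared by the controls. Cutting directed by a guide was not shared, so it cannot be told apart from loss of SETD1A. The labels name no clone or guide sequence for the knockout, a single line stands for breast cancer cells, and the labels do not say if replicates came from different cultures, so that every p-value here reflects spread among 6 libraries and that spread could be technical.

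Haem is an iron-holding ring that cytochromes, catalase and many other enzymes need. Its synthesis starts and ends in mitochondria: ALAS1 makes 5-aminolevulinate from glycine and succinyl-CoA, ALAD, UROS and UROD take part in building and trimming the ring in the cytosol, and CPOX, PPOX and FECH finish it in mitochondria, where FECH inserts iron. In cells outside the red blood lineage ALAS1 sets the pace and haem represses it, while red cell precursors use a separate gene, ALAS2.

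The expression table gave TPM, transcript abundance scaled for transcript length and to a common total, so that levels of different genes can be set side by side; sequencing depth is unknown, because TPM does not keep it. SETD1A itself, the targeted gene, measured 9.36, 11.3 and 10.7 TPM in sgSETD1A libraries and 17.5, 17.5 and 18.1 TPM in sgEmpty libraries, so that it differed by -0.71 log2 (SE 0.071; limma adjusted p = 9.13e-05). The 10 luminal epithelial markers summed to between 16846 and 17386 TPM in sgSETD1A libraries and between 14875 and 15998 TPM in sgEmpty libraries, and all of them were detected. The 9 immune markers summed to between 1.66 and 2.33 TPM in sgSETD1A libraries and between 1.76 and 2.23 TPM in sgEmpty libraries, with CD3D and MS4A1 at 0 throughout. CD68 was the highest of them, at a mean of 1.36 TPM in sgSETD1A and 1.48 TPM in sgEmpty libraries. The 10 fibroblast and endothelial markers summed to at most 5.12 TPM in sgSETD1A and 4.37 TPM in sgEmpty libraries, with DCN at 0. Their highest was COL1A1, at a mean of 3.43 TPM in sgSETD1A and 2.77 TPM in sgEmpty libraries (limma adjusted p = 0.274). Replicate 1 of sgSETD1A stood apart within its group: its correlations with the other libraries of the group, across genes, were 0.9956 and 0.9954, against 0.9977 between those.

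In the haem synthesis set, 2 of the 9 transcripts fell in sgSETD1A cells, 1 rose and 6 did not pass the test. UROS, whose enzyme closes the linear tetrapyrrole into the ring, had the largest change, and TMEM14C, the most abundant of the 9, also fell. ALAS1 rose slightly, a call that most other ways of processing did not keep. A gene was called at a limma adjusted p under 0.05 on log2(TPM + 1), adjusted over all tested genes. Over all of these 13.5% were called lower, 28.0% higher and 41.5% either way, so that 3 calls among 9 genes is not more than the background. The median change of the 9 genes was 0.030 log2, against 0.073 log2 over all tested genes. The balance of calls depended on scaling: after median-ratio rescaling of the libraries 19.2% of tested genes were called lower, 15.5% higher and 34.7% either way, and in the haem synthesis set both falls were called and the rise was not. In bulk libraries, fewer cells that express a gene and less RNA per cell cannot be told apart.

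**Figure D1:**
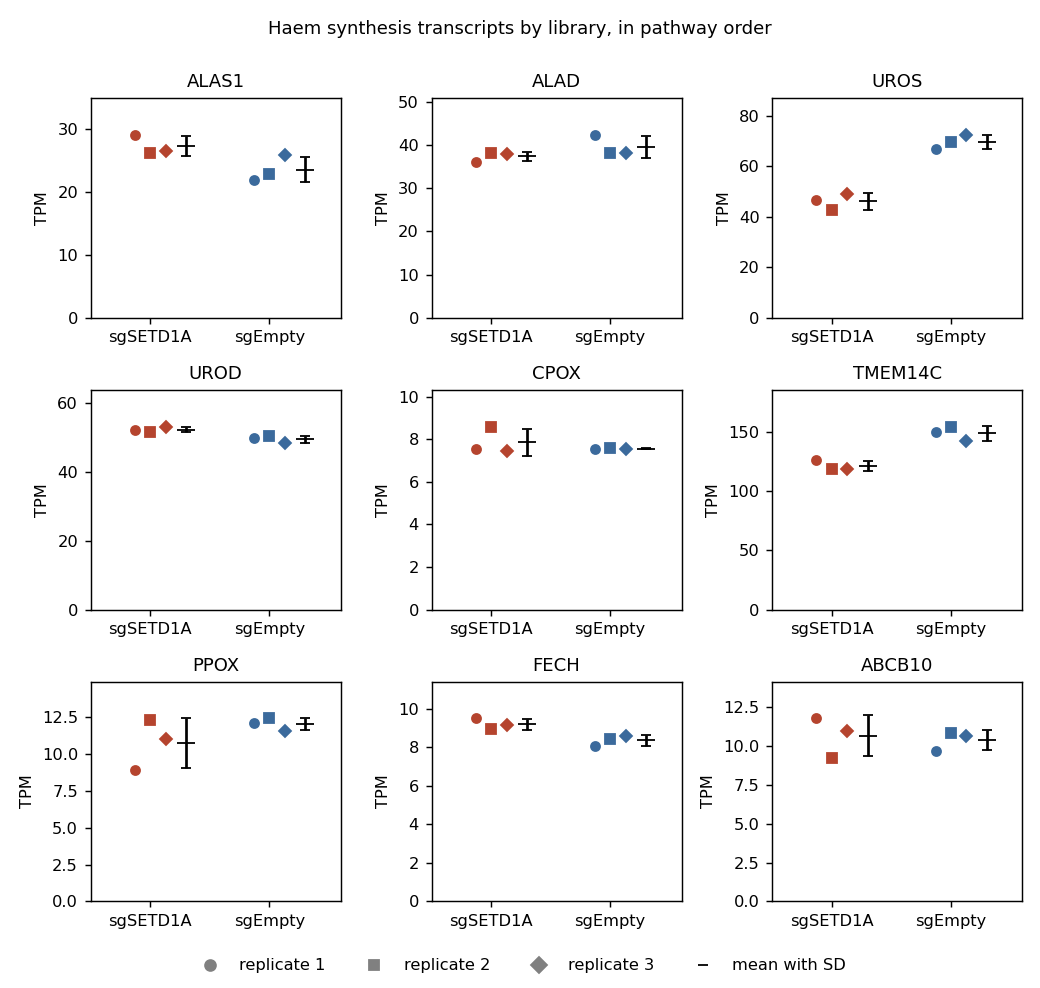
TPM of each of the 9 haem synthesis transcripts in the 3 sgSETD1A (red, left) and 3 sgEmpty (blue, right) libraries, each axis starting at 0, with replicate shown by symbol and the mean and SD in black. UROS and TMEM14C lie lower in every sgSETD1A library, whereas the points of CPOX, PPOX and ABCB10 overlap between groups.

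The levels of the 9 transcripts in sgEmpty cells differed widely. TMEM14C was the highest at 148.8 ± 6.16 TPM, above 91.7% of tested genes, and CPOX the lowest at 7.56 ± 0.024 TPM, above 24.7% of them (SD, n = 3). Cytosolic steps came next to TMEM14C, with UROS at 69.8 ± 2.75, UROD at 49.4 ± 1.08 and ALAD at 39.6 ± 2.46 TPM (SD, n = 3). ALAS1, a mitochondrial enzyme, followed at 23.6 ± 2.01 TPM. The later mitochondrial enzymes PPOX, FECH and CPOX formed the low end with ABCB10, with PPOX at 12.0 ± 0.42, ABCB10 at 10.4 ± 0.63 and FECH at 8.36 ± 0.28 TPM (SD, n = 3). No neighbours in this order overlapped in the sgEmpty libraries. In sgSETD1A libraries PPOX overlapped ABCB10 and ABCB10 overlapped FECH. There UROS ranked below UROD, without overlap, where it had ranked above UROD in sgEmpty libraries.

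ALAS1, the entry enzyme, measured 29.1, 26.2 and 26.6 TPM in sgSETD1A libraries, against 22.0, 22.9 and 25.9 TPM in sgEmpty libraries. The groups did not overlap, but the lowest sgSETD1A library and the highest sgEmpty library were close. The change was 0.20 log2 (SE 0.069; limma adjusted p = 0.0391). The call was lost without any one of sgSETD1A replicates 1, 2 and 3 and sgEmpty replicates 1 and 2 (limma adjusted p = 0.0942, 0.0516, 0.0653, 0.128 and 0.117). After median-ratio rescaling the change was 0.13 log2 (limma adjusted p = 0.162) and after quantile normalization 0.17 log2 (limma adjusted p = 0.0846), and over 14 alternatives the adjusted p ran from 0.0162 to 0.162. ALAS2, the red cell form of this enzyme, was listed at 0 in every library except sgSETD1A replicate 2, at 0.062 TPM.

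ALAD, which joins 2 molecules of 5-aminolevulinate into porphobilinogen, measured 36.2, 38.1 and 38.0 TPM in sgSETD1A libraries and 42.4, 38.1 and 38.2 TPM in sgEmpty libraries. All sgSETD1A values lay below those of sgEmpty, at the closest by less than the rounding of these values, and the change of -0.077 log2 did not pass (95% interval -0.20 to 0.043; limma adjusted p = 0.275). It was -0.027 log2 without sgEmpty replicate 1 (limma adjusted p = 0.690) and -0.15 log2 after median-ratio rescaling (limma adjusted p = 0.0532).

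UROS measured 46.7, 42.6 and 49.0 TPM in sgSETD1A libraries, against 67.0, 69.8 and 72.5 TPM in sgEmpty libraries. Every sgSETD1A library was far below every sgEmpty library, and the mean was 33.9% lower. The change was -0.59 log2 (SE 0.057; limma adjusted p = 7.96e-05), which placed UROS at rank 237 among the falls of all 11885 tested genes. It stayed called in all 14 alternatives, between -0.66 and -0.53 log2. UROD, the next enzyme, which removes carboxyl groups from the ring that UROS closes, measured 52.1, 51.5 and 53.1 TPM in sgSETD1A libraries and 49.7, 50.3 and 48.2 TPM in sgEmpty libraries. Its sgSETD1A libraries all lay above those of sgEmpty, and the change of 0.079 log2 did not pass (95% interval -0.012 to 0.17; limma adjusted p = 0.144). The ratio of UROS to UROD, which a common factor for all genes of a library cannot alter, was 0.88 ± 0.050 in sgSETD1A and 1.41 ± 0.081 in sgEmpty libraries (SD, n = 3).

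CPOX, which turns coproporphyrinogen into protoporphyrinogen between the mitochondrial membranes, measured 7.57, 8.60 and 7.45 TPM in sgSETD1A libraries and 7.54, 7.58 and 7.57 TPM in sgEmpty libraries. The groups overlapped, with sgSETD1A replicate 2 above the rest (0.049 log2, 95% interval -0.11 to 0.21; limma adjusted p = 0.610). PPOX, the next oxidase, measured 8.95, 12.3 and 11.0 TPM in sgSETD1A libraries and 12.1, 12.4 and 11.6 TPM in sgEmpty libraries. Its sgSETD1A replicate 1, the library that stood apart, was the lowest, and the spread within sgSETD1A was 15.7% of the mean, against 3.46% within sgEmpty. The change of -0.16 log2 did not pass (95% interval -0.38 to 0.063; limma adjusted p = 0.223). It was -0.042 log2 without sgSETD1A replicate 1 and -0.25 log2 without sgSETD1A replicate 2 (limma adjusted p = 0.651 and 0.0659). PPOX overlaps B4GALT3 in the RefSeq annotation of GRCh38.p14, and USP21 lies 4 bases from PPOX. B4GALT3 changed by 0.13 log2 (limma adjusted p = 0.0508) and USP21 by -0.19 log2 (limma adjusted p = 0.0491), both close to the threshold. The library kit kept strand, but no source used here says whether the quantification used it, so reads of PPOX and B4GALT3 may be shared.

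FECH, the iron-inserting enzyme, measured 9.51, 8.95 and 9.16 TPM in sgSETD1A libraries and 8.07, 8.41 and 8.61 TPM in sgEmpty libraries. The groups did not overlap, and the change of 0.12 log2 did not pass (95% interval -0.017 to 0.27; limma adjusted p = 0.139). Of the 9 genes, 6 had groups that did not overlap, against 53.7% of all tested genes.

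TMEM14C, which in mouse and zebrafish red cell precursors brings protoporphyrinogen into the mitochondrial matrix, measured 126.0, 119.0 and 118.5 TPM in sgSETD1A libraries, against 149.8, 154.4 and 142.2 TPM in sgEmpty libraries. The groups were clearly apart and the mean was 18.6% lower in sgSETD1A. The change was -0.29 log2 (SE 0.042; limma adjusted p = 0.000717), and it stayed called in all 14 alternatives, between -0.37 and -0.27 log2. ABCB10, an ATP-driven transporter that mouse red cell precursors need to make haemoglobin, measured 11.8, 9.21 and 11.0 TPM in sgSETD1A libraries and 9.66, 10.8 and 10.6 TPM in sgEmpty libraries. Its groups overlapped (0.030 log2, 95% interval -0.17 to 0.23; limma adjusted p = 0.805).

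**Figure D2:**
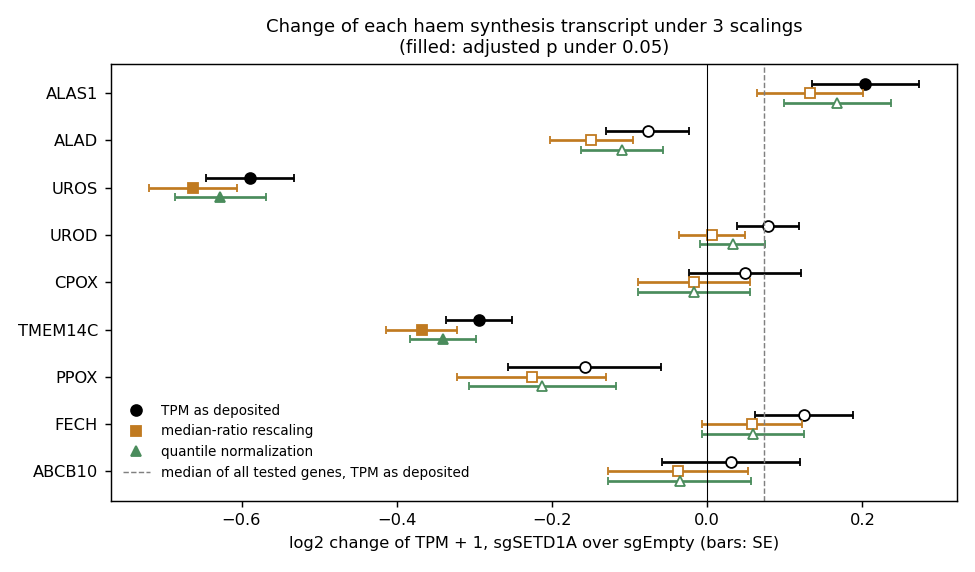
Change of each transcript, sgSETD1A over sgEmpty, on the log2(TPM + 1) scale with its SE, for TPM as deposited (circles), after median-ratio rescaling (squares) and after quantile normalization (triangles). Filled symbols have a limma adjusted p under 0.05. UROS and TMEM14C are filled under all 3 scalings and ALAS1 with TPM as deposited only, while the dashed line marks the median of all tested genes at 0.073 log2.

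Summed over the 9 genes, TPM was between 316.4 and 327.9 in sgSETD1A libraries and between 365.4 and 374.8 in sgEmpty libraries. The means differed by -46.8 TPM (sgSETD1A minus sgEmpty). UROS and TMEM14C together differed by -51.4 TPM and the other 7 by 4.54 TPM. Within a library, UROS made up 14.3 ± 0.83% of this sum in sgSETD1A and 18.9 ± 0.85% in sgEmpty, and UROD 16.2 ± 0.27% in sgSETD1A and 13.4 ± 0.16% in sgEmpty (SD, n = 3). TMEM14C made up 37.5 ± 0.92% in sgSETD1A and 40.3 ± 1.19% in sgEmpty, and ALAS1 8.46 ± 0.37% in sgSETD1A and 6.39 ± 0.60% in sgEmpty (SD, n = 3). The exact two-sided permutation p was 0.1 for the shares of 7 of the 9 genes, the smallest that 3 libraries against 3 can give, and 0.129 when adjusted over the 9 genes. It was 0.2 for ALAD and 0.7 for PPOX. Since the shares sum to a whole, a lower share of one gene raises the others.

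**Figure D3:**
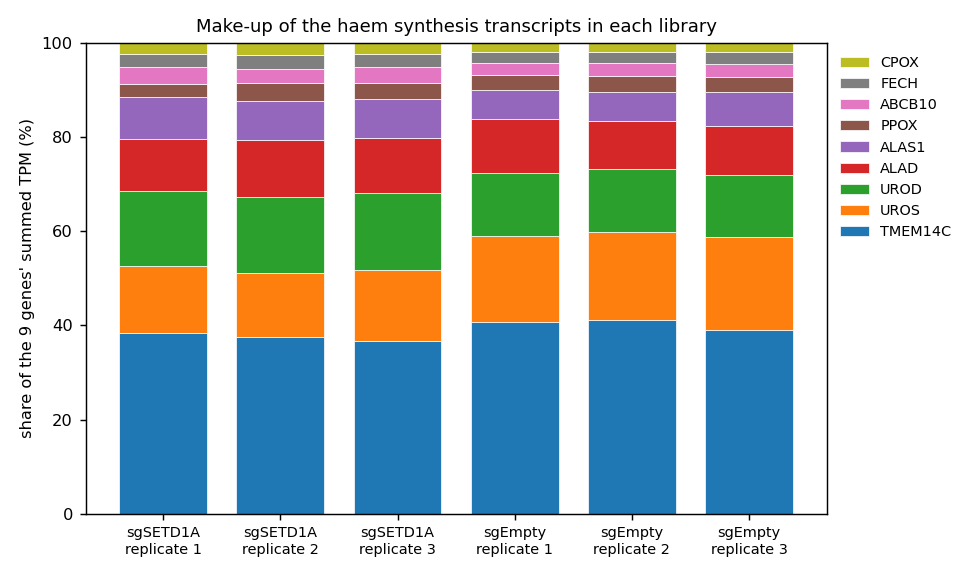
Share of each gene in the summed TPM of the 9 haem synthesis genes (percent, stacked bars) in the 3 sgSETD1A libraries (left) and the 3 sgEmpty libraries (right). The UROS band is thinner in sgSETD1A libraries, at 13.5% to 15.1%, than in sgEmpty libraries, at 18.2% to 19.8%.

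RefSeq promoter sequences (GRCh38.p14; 250 bases before to 50 after the annotated start) were held for 8 of the 9 genes, all but UROS. The 250 bases before the start are shown for the called genes among them, TMEM14C, which fell, and ALAS1, with searched motifs in capitals (GC box GGGCGG and CCAAT box in both; TATA box TATAAA in ALAS1; either strand). TMEM14C lies at chr6:10722820-10723069 on the plus strand and ALAS1 at chr3:52197833-52198082 on the plus strand.
TMEM14C: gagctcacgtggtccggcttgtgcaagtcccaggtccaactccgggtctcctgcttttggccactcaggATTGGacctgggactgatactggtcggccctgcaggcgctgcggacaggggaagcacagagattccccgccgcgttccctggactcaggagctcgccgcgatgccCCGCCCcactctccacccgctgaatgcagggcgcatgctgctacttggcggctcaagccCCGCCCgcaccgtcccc
ALAS1: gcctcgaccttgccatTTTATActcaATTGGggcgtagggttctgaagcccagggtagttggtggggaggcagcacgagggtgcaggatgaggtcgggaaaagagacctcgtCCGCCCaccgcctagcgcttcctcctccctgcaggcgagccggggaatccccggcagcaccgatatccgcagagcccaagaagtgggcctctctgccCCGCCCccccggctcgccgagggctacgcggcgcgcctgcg
GC boxes were matched in 7 of the 8 promoters, all but PPOX, and in 45.0% of the 35116 promoters of the table. Each of the shown promoters held 1 CCAAT box, as did 34.6% of all promoters at least once, and ALAS1 held a TATAAA match 234 bases before its start, as 11.5% of promoters did somewhere in the window. ALAS1 also held a match to the palindromic NRF1 site just past its start, the only one among the 8, against 1.24% of all promoters. NRF1 is a transcription factor of nuclear genes for mitochondrial proteins. FECH alone held the antioxidant response core TGACNNNGC (13.3% of all promoters), CPOX alone the GATA site AGATAA, in 2 copies (10.3%), and none of the 8 held the ETS site CCGGAAGT (4.14%). For ALAD and PPOX the table lists more than 1 start and the first was searched. No binding or methylation was measured here, so these matches describe sequence only.

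The gene next to UROS, BCCIP, moved the other way. BCCIP, whose product binds BRCA2 and acts in DNA repair, measured 111.4, 111.3 and 101.4 TPM in sgSETD1A libraries and 91.7, 97.5 and 92.3 TPM in sgEmpty libraries (0.20 log2, SE 0.047; limma adjusted p = 0.00870), a call lost after median-ratio rescaling (limma adjusted p = 0.0730). The ratio of UROS to BCCIP was 0.43 ± 0.051 in sgSETD1A and 0.74 ± 0.037 in sgEmpty libraries (SD, n = 3). MMP21, on the other side of UROS, stayed at or under 0.248 TPM. TMEM14B, the neighbour and relative of TMEM14C, measured 128.9, 130.6 and 131.7 TPM in sgSETD1A libraries and 123.6, 132.3 and 132.2 TPM in sgEmpty libraries and did not pass (95% interval -0.073 to 0.097; limma adjusted p = 0.817). The ratio of TMEM14C to TMEM14B was 0.93 ± 0.042 in sgSETD1A and 1.15 ± 0.069 in sgEmpty libraries (SD, n = 3). TMEM14A, a further relative, rose by 0.24 log2 (limma adjusted p = 0.0125), a call also lost after median-ratio rescaling (limma adjusted p = 0.0584). These ratios were chosen after the values were seen and have no test. Beside ALAS1, POC1A, 43659 bases away, fell by 0.38 log2 (limma adjusted p = 0.00594) and TLR9, 6752 bases away, stayed at or under 0.128 TPM. BCCIP lies 287 bases from UROS and MMP21 9158 bases. TMEM14B and PAK1IP1 lie 16631 and 13287 bases from TMEM14C. PAK1IP1, on the other side of TMEM14C, had a change of 0.089 log2 (limma adjusted p = 0.335), which was 0.018 log2 after median-ratio rescaling, 0.035 log2 after the quantile method, and 0.050, 0.15 and 0.025 log2 without sgSETD1A replicate 1, sgEmpty replicate 1 and sgEmpty replicate 2.

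By distance between log2 values centred on each gene's mean over the 6 libraries, the tested genes most like UROS were ANKRD26 (0.066) and KCTD18 (0.080), those most like TMEM14C were ORAI3 (0.053) and FAF2 (0.054), and those most like ALAS1 were RUNX2 (0.054) and ZFYVE9 (0.061). They were chosen for their values in the same 6 libraries, so their direction follows from the choice.

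Of 16 other genes of haem synthesis and precursor transport, 14 were tested, of which 2 rose, 1 fell and 11 did not pass, with a median of 0.042 log2. That is 14.3% higher and 7.14% lower, against 28.0% higher and 13.5% lower over all tested genes. In this list 1 rose after either rescaling, while 3 fell with the median-ratio and 2 with the quantile method. Over all tested genes 15.5% were higher and 19.2% lower with the median-ratio method. SHMT2, which makes glycine in mitochondria, fell by 0.17 log2. ABCB6, a porphyrin transporter, rose by 0.33 log2 (SE 0.061; limma adjusted p = 0.00229). SLC25A39, which imports glutathione into mitochondria, rose by 0.18 log2 (limma adjusted p = 0.0176), a call lost under median-ratio rescaling (limma adjusted p = 0.120), under quantile normalization (0.152), without the mean-variance trend (0.0547) and without sgSETD1A replicate 2 or 3 or sgEmpty replicate 2 or 3 (0.0637, 0.0568, 0.0542 and 0.0678). SLC25A38, the glycine importer, measured 53.8 ± 0.47 TPM in sgSETD1A and 50.8 ± 1.64 TPM in sgEmpty libraries (SD, n = 3; limma adjusted p = 0.143).

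Of 14 genes of haem use, export and breakdown, all tested, 3 rose, 3 fell and 8 did not pass, with a median of 0.018 log2. That is 21.4% in each direction, against 28.0% higher and 13.5% lower over all tested genes. After either rescaling 5 fell. Over all 11885 tested genes 19.2% were then lower with the median-ratio method, and 2056 with the quantile method. COX15, which makes the haem A of cytochrome c oxidase, measured 6.90, 6.84 and 6.92 TPM in sgSETD1A libraries, against 12.8, 13.9 and 13.4 TPM in sgEmpty libraries. This was the largest change of the list, at -0.86 log2 (SE 0.061; limma adjusted p = 1.51e-05). COX10, the enzyme before it, measured 12.9 ± 0.44 TPM in sgSETD1A and 13.1 ± 0.36 TPM in sgEmpty libraries (SD, n = 3; limma adjusted p = 0.721). HMOX1, the inducible haem oxygenase, measured 4.93, 5.60 and 5.22 TPM in sgSETD1A libraries and 2.96, 3.22 and 3.65 TPM in sgEmpty libraries. On the log2(TPM + 1) scale HMOX1 was 0.55 higher (SE 0.090; limma adjusted p = 0.00139). With pseudocounts of 0.1 and 5 this rise was 0.67 and 0.31 log2. The biliverdin reductases BLVRA and BLVRB, which act after HMOX1, fell by 0.16 and 0.19 log2. ABCG2, an exporter of porphyrins and drugs, rose by 0.32 log2 and SLC48A1, a haem transporter of lysosomes, by 0.29 log2. The SLC48A1 call was lost without a filter (limma adjusted p = 0.0699, with the change as before) and after either rescaling (0.22 and 0.23 log2; limma adjusted p = 0.0765 and 0.0539). It was also lost without sgSETD1A replicate 2 or 3 or sgEmpty replicate 2 (0.30, 0.20 and 0.23 log2; limma adjusted p = 0.0537, 0.0929 and 0.104).

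The list for iron supply and iron-sulfur clusters held 24 symbols, with FDX2 under both its names. Of these 22 were tested, of which 4 rose, 5 fell and 13 did not pass, with a median of 0.00061 log2. These were 18.2% higher and 22.7% lower, against 28.0% and 13.5% over all tested genes, of which 41.5% were called either way. FTH1, the heavy chain of the iron store ferritin, rose to 2717 ± 31.5 TPM in sgSETD1A, against 2168 ± 46.5 TPM in sgEmpty libraries (SD, n = 3; 0.33 log2, limma adjusted p = 2.39e-05). FTL, the light chain, rose by 0.14 log2 (limma adjusted p = 0.00656), a call lost with the median-ratio and the quantile method (limma adjusted p = 0.134 and 0.179). TFRC, the receptor for transferrin-bound iron, measured 154.9 ± 4.02 TPM in sgSETD1A and 154.1 ± 2.40 TPM in sgEmpty libraries (SD, n = 3; limma adjusted p = 0.878). SLC11A2, an iron importer, measured 53.8, 53.0 and 55.0 TPM in sgSETD1A libraries, against 65.4, 58.8 and 60.9 TPM in sgEmpty libraries. Its groups did not overlap, and it fell by 0.19 log2 (limma adjusted p = 0.0112), a call kept in all 14 alternatives. Assembly factors of iron-sulfur clusters, a cofactor that FECH holds, moved both ways: BOLA3 rose by 0.34 log2, while ISCA2 fell by 0.36, NFU1 by 0.35, NFS1 by 0.28 and LYRM4 by 0.20 log2. FDXR, an electron donor in this assembly, rose by 0.23 log2. The calls of FDXR, NFS1 and LYRM4 were lost in 7, 5 and 7 of the 14 alternatives. The count of falls was 3 without sgSETD1A replicate 1, sgEmpty replicate 2 or sgEmpty replicate 3. Over all tested genes 1616, 1299 and 1288 were then lower, against 1605 with every library. After median-ratio rescaling 2 rose and 7 fell, where 15.5% of all tested genes were higher and 19.2% lower.

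**Figure D4:**
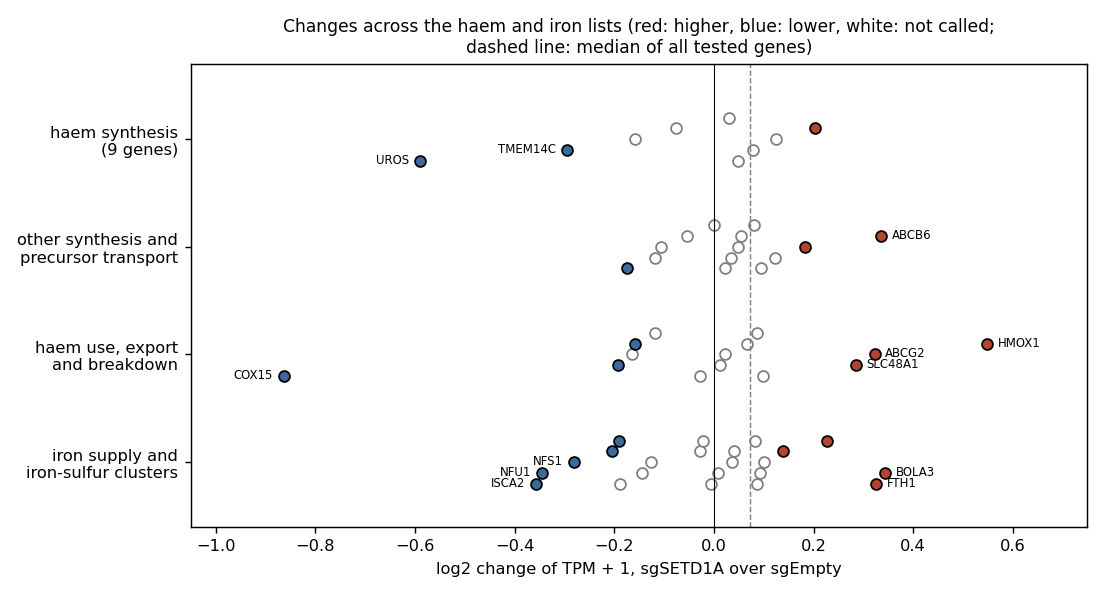
Change of each tested gene, sgSETD1A over sgEmpty on the log2(TPM + 1) scale, in the haem synthesis set and the other lists of haem and iron genes; red is called higher, blue called lower and white not called. COX15 at -0.86 and UROS at -0.59 log2 lie farthest left and HMOX1 at 0.55 log2 farthest right.

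Red cell genes were mostly absent. Of 14 erythroid markers 10 stayed under 1 TPM in every library, and HBB, HBG1, HBG2, GYPB and EPB42 were at 0. The list summed to between 17.1 and 19.3 TPM in sgSETD1A libraries and between 13.8 and 16.5 TPM in sgEmpty libraries, and its part in the changes of the haem genes was not tested. Most of this sum came from EPOR and TFR2. EPOR measured 10.0 ± 1.45 TPM in sgSETD1A and 10.2 ± 1.15 TPM in sgEmpty libraries (SD, n = 3). TFR2 measured 4.27 ± 0.52 TPM in sgSETD1A and 3.44 ± 0.35 TPM in sgEmpty libraries (SD, n = 3). Neither was called (limma adjusted p = 0.812 and 0.0793). HBA1, an alpha globin gene, measured 2.79, 2.30 and 2.11 TPM in sgSETD1A libraries and 0.954, 0.576 and 1.07 TPM in sgEmpty libraries (0.87 log2, SE 0.13). With a mean of 2.40 TPM in sgSETD1A and 0.865 TPM in sgEmpty, HBA1 passed the filter of 1 TPM only through its sgSETD1A libraries. No test is therefore drawn for HBA1. Its near-identical copy HBA2 measured 1.33 to 1.50 TPM in sgSETD1A and 0.267 to 0.705 TPM in sgEmpty libraries, and reads can be split between the copies, so either value is uncertain.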

How the data were processed

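RNA of 6 libraries was analysed, 3 sgSETD1A and 3 sgEmpty, grouped by the sample titles. The authors deposited TPM values, a length-scaled expression signal whose columns each sum to a fixed total. Per the submitters' processing notes, bcl2fastq 2.20.0, STAR 2.6.0c, RSEM 1.3.1 and hg19 were used, without roles. The final line named no gene, repeated each column's total of 1000000 and was left out. The guide pool libraries were not used. Log2(TPM + 1) of genes with a mean of at least 1 TPM was fitted with limma 3.58.1 (R 4.3.3; mean-variance trend, no block), with Benjamini-Hochberg adjustment over all tested genes and a threshold of 0.05; this scale understates changes of low genes. The fit was tested on simulated data with independent noise for each gene and few changed genes. That simulation held no offset or shared variation between libraries, so it says nothing about how calls depend on scaling. The 9 genes, the lists and the motifs were chosen with earlier results of these data known, so list counts carry no test. Named beside the 9 genes were SETD1A, ALAS2, up to 4 called rises and 4 called falls of each list by size, the genes next to called members, relatives of TMEM14C, and the 2 genes nearest each called member. SLC25A38, COX10, TFRC, SLC11A2, HBA2, EPOR and TFR2 were added after their values were seen. Some genes first listed are not reported here and were left out of the lists and their counts. Of the 10 luminal markers, all tested, 7 rose (KRT18, EPCAM, MUC1 and GATA3 by 0.26, 0.22, 0.18 and 0.18 log2 the most) and CLDN4 fell by 0.20. That is 70% higher and 10% lower, against 28.0% and 13.5% over all tested genes. After median-ratio rescaling 15.5% of all tested genes were higher. The 4 named rises were then 0.19, 0.15, 0.11 and 0.11 log2, with MUC1 close to the threshold (limma adjusted p = 0.0499). The other called rises, KRT8, KRT19 and FOXA1 by 0.15, 0.15 and 0.14 log2 with deposited TPM, were not followed under rescaling. The 70% is therefore known for deposited TPM only. Symbols FAM210B and FDX2 were not matched; FDX1L, the older name of FDX2, was. Alternatives were pseudocounts of 0.1 and 5, no filter or a mean of at least 5 TPM, 2 scalings, a replicate block, no trend, and leaving out each library.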

Additional observations from a re-analysis of the deposited data

How the results depend on the processing

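UROS, TMEM14C and SETD1A kept their direction and their call in all 14 alternatives, and the count of members called lower was 2 in each. The count of members called higher, which rests on ALAS1, was 0 without a filter, after either rescaling (median-ratio or quantile), with the replicate block and without the trend, and 0 to 1 when each library was left out. ALAS1 itself changed by 0.20 log2 without a filter, with the block and without the trend (limma adjusted p = 0.0779, 0.0526 and 0.0616), by 0.13 and 0.17 after the rescalings, and by 0.16 to 0.27 when each library was left out. CPOX turned to -0.017 log2 after either rescaling and ran from -0.0091 to 0.083 with libraries left out; ABCB10 turned to -0.037 and -0.036 and ran from -0.039 to 0.12; TMEM14B turned to -0.062 and -0.018 and ran from -0.020 to 0.028. None of these 3 was called in any setting. Over all genes 1837 (median-ratio) and 2142 (quantile) were higher after rescaling, against 3327 for deposited TPM, and 2361 to 3459 with libraries left out; the share of calls that were higher was 67.5% for deposited TPM, 44.6% and 51.0% after these rescalings. In the other synthesis list 1 gene was higher after either rescaling and without the trend, 1 to 3 with libraries left out, and 3 (median-ratio) and 2 (quantile) were lower after rescaling. Without the trend 3056 were higher over all genes. In the list of haem use 5 were lower after either rescaling. Over all genes 2284 (median-ratio) and 2056 (quantile) were lower after rescaling, against 1605 for deposited TPM. In the iron list 3 were higher and 3 lower without a filter, 2 were higher after either rescaling, and 3 to 4 were higher and 3 to 5 lower with libraries left out. Over all genes 3044 were higher and 1477 lower of the 16152 tested without a filter. With libraries left out 1288 to 1616 were lower over all genes. With TMEM14C left out of the sum, the log2 ratio of shares was 0.21 for UROD and 0.27 for FECH. A median-ratio factor removes the overall offset by construction, and for the other differences the cause was not tested. Whether replicate numbers pair the libraries could not be settled. Deviations of same-numbered libraries correlated at 0.085, -0.10 and 0.17 across genes, and not every library correlated best with its own number. These deviations were centred within each group of 3, so correlations of both signs must occur and cannot exclude pairing. With the replicate block 3103 genes were higher and 1539 lower. Depth is unknown, so counting error of low transcripts such as CPOX, FECH, PPOX and ABCB10 could not be given.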
